A study of Rattus norvegicus with 6 samples.

Results

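The cadherins described here are those that lie, by the usual account of their biology, outside the intercalated disc, the junction that joins heart muscle cells end to end and whose classical cadherin is N-cadherin (Cdh2). The 9 genes were Cdh1, Cdh3, Cdh4, Cdh5, Cdh6, Cdh11, Cdh13, Cdh15 and Cdh17, and every probe set that the platform gene table pairs with exactly 1 of these symbols was kept. This gave 6 probe sets, 1 each for Cdh1, Cdh5, Cdh6, Cdh13, Cdh15 and Cdh17, out of 14506 genes that had a probe set paired with 1 symbol (15310 probe sets, of 29215 in the table). Cdh3, Cdh4 and Cdh11 had no probe set in the platform gene table and were not analysed here. The genes were chosen by name, but with the differences between hCT1-treated and control cardiomyocytes on these same arrays already known, above all that of Cdh17, so the values of the 6 genes in that comparison are given as a description, and where their limma calls are counted the counts support nothing.

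The arrays measured total RNA of primary neonatal cardiomyocytes that were prepared from the ventricles of 2-day-old Sprague-Dawley rats. There were 3 samples of hCT1-treated cells (recombinant human cardiotrophin 1, 0.5 nM, 24 h) and 3 of control cells (serum-free medium, 24 h), with 1 Affymetrix whole-transcript array per sample. Cells of several digests were pooled and fibroblasts were reduced by letting them attach to a dish beforehand, so that the cultures were enriched for cardiomyocytes rather than pure; the growth line of the sample records names a hypertrophic agonist even for the controls, whereas their treatment line and the methods give the controls serum-free medium alone. Whether each of the triplicates came from its own culture is not stated, and errors and p-values cover only the spread from sample to sample, part or all of which may be technical.

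Cadherins are calcium-dependent adhesion proteins: their outer domains bind cadherins of the neighboring cell, and in the classical members the inner tail binds p120 and beta-catenin, which link the junction through alpha-catenin to actin. E-cadherin (Cdh1) joins epithelial cells, VE-cadherin (Cdh5) endothelial cells and M-cadherin (Cdh15) cells of the skeletal muscle lineage, whereas Cdh6 was first known from the kidney. T-cadherin (Cdh13) has no inner tail at all, being held to the membrane by a lipid anchor, and it binds adiponectin and low-density lipoprotein. LI-cadherin (Cdh17) was found in rat liver and intestine, has only a short tail, and adheres without catenins.

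The values are log2 values after robust multiarray averaging (RMA), so that a difference of 1 is a doubling, and they can be compared between samples for 1 probe set but not between probe sets. The 6 arrays were alike, with a Pearson's r over all probe sets of 0.997 to 0.998 within groups and 0.994 to 0.996 between groups. The 10 cardiomyocyte markers were bright in control cells, from percentile 83.5 of array signal for Myh6 to 99.9 for Actc1, and the 9 fibroblast markers ran from percentile 59.4 for Tcf21 to 99.3 for Col1a1. By limma (threshold 0.05 after Benjamini-Hochberg adjustment) 762 probe sets had higher and 1506 lower values in hCT1-treated cells, or 917 and 1148 after another round of quantile normalization. The median difference over all 15310 was -0.0028. At an unadjusted p under 0.05 in limma, 1798 of them were higher and 2796 lower. The adjusted calls above were 4.98% higher and 9.84% lower of the 15310 probe sets. The counts of the lists below, adjusted and unadjusted, are to be read beside these.

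Cdh17 had by far the largest difference of the 6 cadherins. Its log2 value (probe set 10867667) was 7.25, 7.26 and 7.22 in the hCT1 samples, against 5.16, 5.31 and 4.995 in the control samples. The groups were far apart: the gap between the lowest hCT1 and the highest control value was 1.90, many times the range within either group (0.0409 for hCT1 and 0.317 for control). The means were 7.24 ± 0.02 in hCT1-treated cells and 5.16 ± 0.16 in control cells (SD, n = 3 each), a log2 difference of 2.09 (SE 0.08) or a 4.24-fold higher signal. In order of difference Cdh17 ranked 7 among the 15310 probe sets. The control values lay at percentile 45.6 of array signal and the hCT1 values at percentile 68.8; the table has no detection calls, so the control level may be near background and the fold understated.

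Cdh13 was higher in hCT1-treated cells by a smaller amount. Its log2 value (probe set 10808274) was 9.90, 9.96 and 9.92 in the hCT1 samples, against 9.57, 9.57 and 9.58 in the control samples. The groups did not overlap, with a gap of 0.316, and the 3 control samples differed from each other by no more than 0.013. The means were 9.93 ± 0.04 in hCT1-treated cells and 9.57 ± 0.01 in control cells (SD, n = 3 each), a log2 difference of 0.35 (SE 0.05), which is a 1.28-fold higher signal. At percentile 94.2 of array signal with hCT1 and 92.0 without, the Cdh13 probe set was among the bright ones of these cultures, and its within-group SD was at percentile 2.5 of all probe sets tested.

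Cdh1 gave a dim signal in both groups. Its log2 value (probe set 10807542) was 4.01, 3.99 and 4.12 in the hCT1 samples, against 3.78, 4.01 and 3.90 in the control samples. The highest control sample lay above the lowest hCT1 samples, so the groups overlapped. The means were 4.04 ± 0.07 in hCT1-treated cells and 3.90 ± 0.12 in control cells (SD, n = 3 each), a log2 difference of 0.14 (SE 0.07). Both means lay in the lower part of the signal range, at percentile 28.3 for hCT1 and 26.8 for control, where values may be background.

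Cdh5, the endothelial cadherin, had the smallest difference. Its log2 value (probe set 10809048) was 7.24, 7.35 and 7.32 in the hCT1 samples, against 7.31, 7.35 and 7.32 in the control samples. The values of the groups lay within each other, apart from the first hCT1 sample, which was the lowest of the 6. The means were 7.30 ± 0.05 in hCT1-treated cells and 7.33 ± 0.02 in control cells (SD, n = 3 each), a log2 difference of -0.03 (SE 0.06) that took the other sign, at 0.04, after another round of quantile normalization and, at 0.0056, without hCT1 replicate 1.

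Cdh15 and Cdh6 were the cadherins whose hCT1 samples all lay below the control samples, by small amounts. Cdh15 (probe set 10808563) was 5.13, 5.10 and 5.04 in the hCT1 samples, against 5.23, 5.22 and 5.25 in the control samples. The gap between the groups was 0.0841, less than the range of the hCT1 samples (0.0955). The means were 5.09 ± 0.05 in hCT1-treated cells and 5.23 ± 0.02 in control cells (SD, n = 3 each), a log2 difference of -0.14 (SE 0.05). Cdh6 (probe set 10822043) was 4.85, 4.83 and 4.75 in the hCT1 samples, against 5.01, 4.90 and 4.91 in the control samples. Here the groups were separated by only 0.0463, with the first control sample standing above the other controls. The means were 4.81 ± 0.05 in hCT1-treated cells and 4.94 ± 0.06 in control cells (SD, n = 3 each), a log2 difference of -0.13 (SE 0.06). The control means of Cdh15 and Cdh6 lay at percentiles 46.5 and 42.8 of array signal, so that these values too may be near background.

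**Figure D1:**
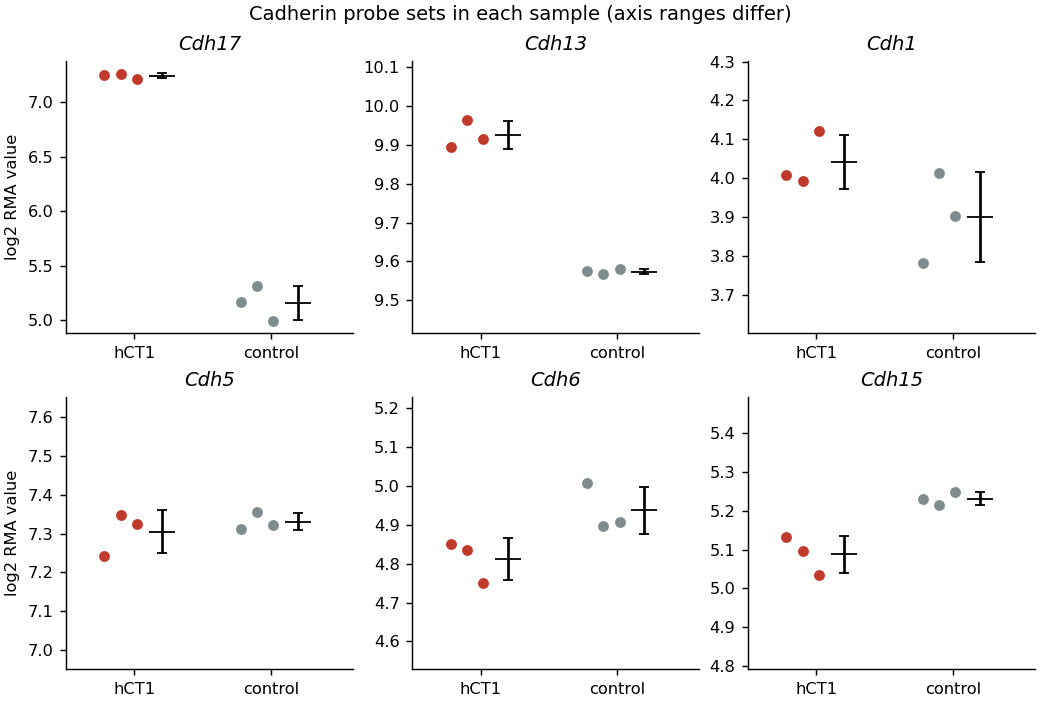
Each panel plots the log2 RMA value of 1 cadherin probe set in the 3 hCT1 samples (red) and the 3 control samples (grey), 1 point per sample, with the mean and SD in black and an axis range of its own. Cdh17 and Cdh13 lie higher in every hCT1 sample, by 2.09 and 0.35 on average, Cdh6 and Cdh15 lie lower by 0.0463 and 0.0841 at the closest samples, and the groups overlap for Cdh1 and Cdh5.

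Cdh6 and Cdh15 are also the only members with a promoter sequence at hand (2 of 9), and these are shown for that reason. The windows run from 250 bases before to 50 after the gene start in RefSeq (rat build GRCr8), on the minus strand at chr2:63952238-63952537 for Cdh6 and on the plus strand at chr19:67814407-67814706 for Cdh15. Capitals mark E-boxes, the letters CANNTG to which basic helix-loop-helix factors and the Snail and ZEB repressors of cadherin genes bind in some of their forms.
Cdh6: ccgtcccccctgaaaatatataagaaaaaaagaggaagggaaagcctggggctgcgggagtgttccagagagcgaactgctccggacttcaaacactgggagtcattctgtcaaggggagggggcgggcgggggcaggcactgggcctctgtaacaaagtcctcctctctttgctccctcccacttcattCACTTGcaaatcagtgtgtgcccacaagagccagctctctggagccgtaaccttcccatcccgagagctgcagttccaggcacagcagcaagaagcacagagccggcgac
Cdh15: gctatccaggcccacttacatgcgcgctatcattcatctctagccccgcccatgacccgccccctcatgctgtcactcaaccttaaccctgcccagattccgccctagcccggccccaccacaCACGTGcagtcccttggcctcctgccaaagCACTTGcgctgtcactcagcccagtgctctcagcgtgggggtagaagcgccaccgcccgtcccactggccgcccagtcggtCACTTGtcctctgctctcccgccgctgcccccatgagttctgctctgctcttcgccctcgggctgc

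The Cdh6 window held 1 E-box, CACTTG at base -60 from the start, and that of Cdh15 held 3, CACGTG at -127 and CACTTG at -97 and -16. An E-box of any form stood in 72.1% of the 33469 promoter windows of the same length, so that having one sets neither gene apart. Searched on both strands, neither window held the palindromic STAT motif TTCNNNGAA (8.87% of all windows), the Snail-type E-box CACCTG (18.8%) or the myogenic-type E-box CAGCTG (15.1%), forms of which the last 2 are also E-boxes. These are matches of letters in 300 bases only. The GC content was 57.3% in the Cdh6 window and 65% in that of Cdh15, against a median of 51.7% over all windows. By RefSeq annotation 6 of the 9 genes, and 4 of the 6 with a probe set (Cdh1, Cdh5, Cdh13 and Cdh15), lie on chromosome 19.

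Read as counts, 2 of the 6 cadherins (Cdh17 and Cdh13) passed an adjusted p of 0.05 in limma as higher, where 4.98% of all probe sets did, and 0 passed as lower, where 9.84% did. At an unadjusted p under 0.05, 2 were higher (as were 1798 of all 15310 probe sets) and 1 lower (Cdh15, as were 2796). By the one-way test of the methods with the same adjustment 0 were lower. The methods give that test for comparisons of several groups and name no test for the arrays. The hCT1 samples were all higher than the controls for 2 of the 6 (as for 13.9% of all probe sets) and all lower for 2 (as for 20.5%). Since the genes were chosen with this comparison known, nothing is drawn from these counts. The median log2 difference of the 6 was 0.06.

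The same fit gives the other cadherins named Cdh in the rat, which hold the disc cadherin Cdh2 and members best known from brain, kidney and inner ear. Of 14 listed genes 9 had a probe set, of which 1 passed as higher, 1 as lower and 7 in neither direction; their median log2 difference was 0.06. Cdh2, singled out here as the cadherin of the disc, was 11.01 ± 0.02 in hCT1-treated cells and 10.98 ± 0.05 in control cells (SD, n = 3 each), a log2 difference of 0.04 (SE 0.06, adjusted p = 0.707 from limma). Cdh16, a kidney cadherin that like Cdh17 has a short tail, was 4.10 ± 0.06 in hCT1-treated cells and 3.88 ± 0.07 in control cells, a difference of 0.21 (SE 0.06, adjusted p = 0.0461 from limma). Cdh20 fell to 5.17 ± 0.06 in hCT1-treated cells, against 5.42 ± 0.10 in control cells, by 0.24 (SE 0.07, adjusted p = 0.0397 from limma). Neither call was firm: that of Cdh16 was lost when any 1 of the 6 samples was left out (adjusted p of 0.0604 to 0.16 from limma), and that of Cdh20 without any 1 of them but control replicate 2 (0.0567 to 0.13), and the control signal of Cdh16 lay at percentile 26.5. Whether the differences of Cdh17 and of these genes themselves differ was not tested.

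**Figure D2:**
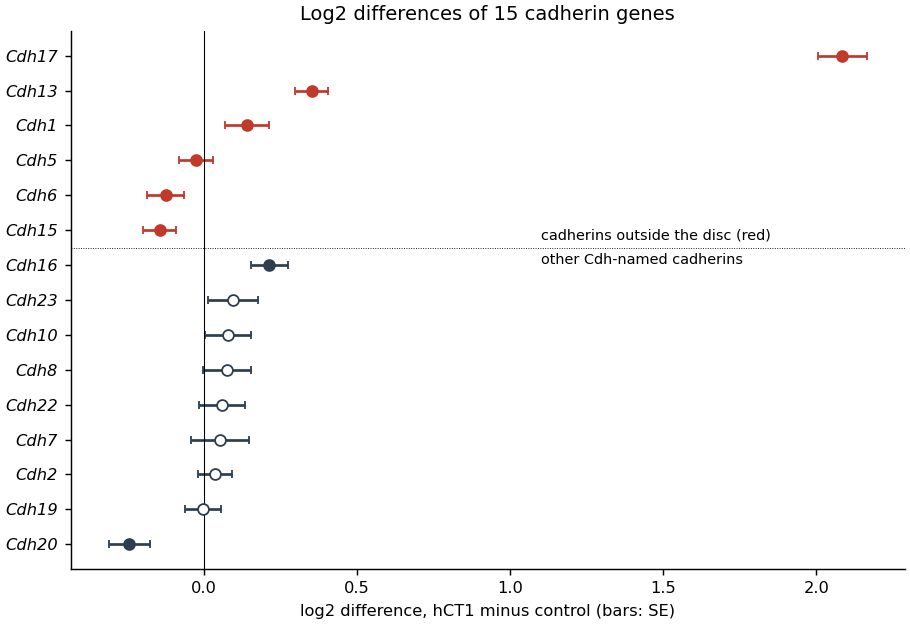
The log2 difference (hCT1 minus control, 3 samples each) of each cadherin gene is plotted with its SE, the cadherins outside the disc in red above the dotted line and the other Cdh-named cadherins in dark blue below it; among the other cadherins, filled points had an adjusted p under 0.05 in limma and open points did not. Cdh17 stands at 2.09 and Cdh13 at 0.35, and the other 13 genes lie between -0.24 and 0.21.

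Catenins tie classical cadherins to the cytoskeleton. Of 12 measured catenins and cytoplasmic partners (14 listed), limma called 0 higher and 1 lower and left 11 without a call. Of all probe sets it called 4.98% higher and 9.84% lower. The median log2 difference of the list was 0.0015. At an unadjusted p under 0.05, 1 of the list was higher and 2 lower. The gene that passed was Ctnnal1, a relative of alpha-catenin, which fell to 7.61 ± 0.05 in hCT1-treated cells, against 7.98 ± 0.07 in control cells (SD, n = 3 each), by 0.38 (SE 0.06, adjusted p = 0.00395 from limma). The core genes, singled out for their role after their values were seen, had log2 differences of 0.0026 for Ctnnb1 (beta-catenin, SE 0.07), 0.04 for Ctnna1 (alpha-catenin, SE 0.08), 0.00034 for Jup (plakoglobin, SE 0.06) and 0.16 for Ctnnd1 (p120, SE 0.05, adjusted p = 0.0735 from limma).

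Protocadherins and the large Fat, Dachsous and Celsr cadherins were measured for 12 of 20 listed genes, of which limma called 0 higher and 2 lower and left 10 without a call, around a median log2 difference of -0.04; at an unadjusted p under 0.05, 2 were higher and 5 lower. Pcdh18 fell to 7.40 ± 0.03 in hCT1-treated cells, against 7.67 ± 0.05 in control cells, by 0.27 (SE 0.05, adjusted p = 0.0114 from limma). Pcdh7 fell to 8.19 ± 0.02 in hCT1-treated cells, against 8.38 ± 0.02 in control cells, by 0.19 (SE 0.05, adjusted p = 0.0389 from limma), a call that was lost when any 1 of the 6 samples was left out (adjusted p of 0.0534 to 0.114 from limma).

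Among 7 factors that repress Cdh1 in epithelia or bind its E-boxes, limma called 1 higher and 0 lower (median -0.03). Tcf4 rose to 10.03 ± 0.04 in hCT1-treated cells, against 9.71 ± 0.08 in control cells, by 0.32 (SE 0.06, adjusted p = 0.00981 from limma), a call lost by the one-way test of the methods (adjusted p = 0.0538). Of 8 measured genes of ectodomain shedding, by which proteases cut cadherins from the cell surface, limma called 2 higher and 0 lower (median 0.09; at an unadjusted p under 0.05, 3 higher and 2 lower). Timp1, which encodes an inhibitor of metalloproteinases and so opposes the list's name, rose to 11.37 ± 0.03 in hCT1-treated cells, against 10.87 ± 0.02 in control cells (difference 0.50, adjusted p = 0.000404 from limma). Adam9, a membrane protease, rose to 8.82 ± 0.11 in hCT1-treated cells, against 8.43 ± 0.07 in control cells (difference 0.38, adjusted p = 0.00743 from limma), a call likewise lost by the one-way test (adjusted p = 0.0668).

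Of 8 measured ligands and partners of single cadherins, limma called 1 higher and 0 lower (median 0.06). Adipor2, a receptor for adiponectin, the ligand that Cdh13 also binds, rose by 0.26 (SE 0.05, adjusted p = 0.0131 from limma), a call that was lost without hCT1 replicate 2 (adjusted p = 0.0507) or without control replicate 1 (0.0511), whereas Adipoq, the gene of adiponectin itself, was dim in both groups (3.36 ± 0.08 in hCT1-treated cells and 3.41 ± 0.06 in control cells). Of 4 measured intestinal transcription factor genes that act with or on Cdh17 in the gut, 0 passed in either direction by limma, at an adjusted or an unadjusted p under 0.05, although 1 passed as lower without control replicate 3. The largest values in that list were those of Gata4 (-0.15, SE 0.07) and Gata6 (-0.05, SE 0.06), both also heart factors, and Cdx2, which drives Cdh17 in the intestine, was 4.18 ± 0.09 in hCT1-treated cells and 4.16 ± 0.09 in control cells (SD, n = 3 each).

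**Figure D3:**
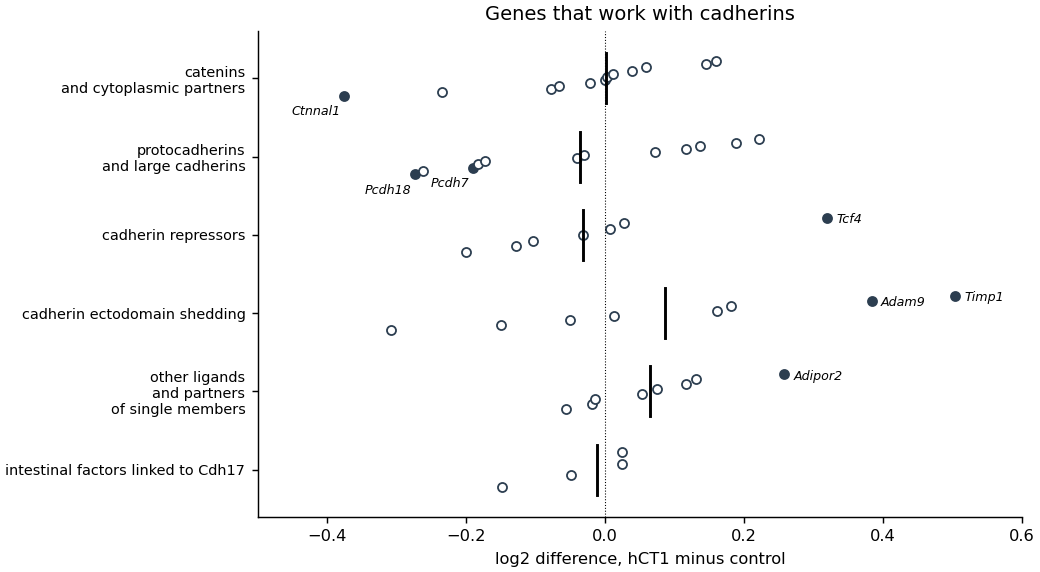
Each point is the log2 difference (hCT1 minus control, 3 samples each) of 1 gene, by list; filled, named points had an adjusted p under 0.05 in limma, open points did not, and black lines are list medians. The medians lie between -0.04 and 0.09, and the named genes run from Ctnnal1 at -0.38 to Timp1 at 0.50.

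Because these are bulk RNA samples, fewer cells of a type and less RNA per cell cannot be told apart. Markers of the cell types that use each cadherin were set beside it. They come from the same RNA and have the same limit. For Cdh17 and Cdh1, 0 of 7 measured intestinal epithelial markers passed in either direction by limma (0 also at an unadjusted p under 0.05), with Tff3 (0.17) and Krt20 (0.15) the largest differences, although a second and dimmer probe set of Vil1 passed as higher (0.28, adjusted p = 0.0486 from limma) where its brightest did not (-0.06). The mean log2 value over the list was 3.88 to 4.02 in hCT1 samples and 3.79 to 4.002 in control samples. Of 9 general epithelial markers 0 were higher and 1 was lower, Krt18, by 0.71 on its brightest probe set (2 of its 3 probe sets passed as lower, the other at -0.66, while the dimmest, at -0.06, did not), and the mean over the list was 4.48 to 4.60 in hCT1 samples and 4.55 to 4.61 in control samples. The defining marker Epcam was 2.47 ± 0.13 in hCT1-treated cells and 2.38 ± 0.12 in control cells, at percentile 5.36 of control signal. Of 5 mesothelial and epicardial markers 1 was higher, the keratin gene Krt19 (difference 1.82, SE 0.09, adjusted p = 4.86e-06 from limma), and 1 was lower, Msln (-0.29, adjusted p = 0.0483 from limma). The call of Msln was lost without hCT1 replicate 2 or 3 or control replicate 1 or 2 (0.137 to 0.15 from limma). It was also lost over every probe set (0.0986) and after another quantile normalization (0.0901), both from limma, and by the one-way test (adjusted p = 0.185). The keratin gene Krt19 was placed in this list and not beside Krt18 among the epithelial markers, so the epithelial count depends on that choice. The mean over the mesothelial and epicardial list was 6.52 to 6.58 in hCT1 samples and 6.26 to 6.30 in control samples. That mean leans on Krt19, since the median log2 difference of the list was -0.09. The part of epithelial, mesothelial or epicardial cells in the Cdh17 values was not tested.

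Beside Cdh5 and Cdh13, 11 endothelial markers were measured, of which limma called 1 higher and 1 lower, around a median of 0.10. Kdr, a VEGF receptor, rose by 1.18 (SE 0.07, adjusted p = 1.43e-05 from limma) and Emcn fell by 0.47 (SE 0.11, adjusted p = 0.0216 from limma). The call of Emcn was lost without hCT1 replicate 1 or 2 or control replicate 2 or 3 (0.0517 to 0.0739 from limma). It was also lost over every probe set (0.0557 from limma) and by the one-way test (adjusted p = 0.155). Pecam1, the junction partner of Cdh5, differed by -0.02 (SE 0.06). The mean over the list was 7.04 to 7.13 in hCT1 samples and 6.94 to 7.03 in control samples. Of 7 smooth muscle and pericyte markers 0 were higher and 2 lower, Myh11 (-0.39, lost by the one-way test with an adjusted p of 0.0522) and Tagln (-0.30), with a list mean of 9.18 to 9.20 in hCT1 samples and 9.25 to 9.28 in control samples. Of 10 cardiomyocyte markers 0 were higher and 4 lower, Tnni3 (-0.62), Myl2 (-0.48), Myh6 (-0.45) and Mybpc3 (-0.31), of which Myh6 (adjusted p = 0.0503) and Mybpc3 (adjusted p = 0.0783) were lost by the one-way test, with a list mean of 10.63 to 10.70 in hCT1 samples and 10.87 to 10.90 in control samples. Of 9 fibroblast markers 0 passed by limma, with 1 higher and 2 lower at an unadjusted p under 0.05 and Dcn (0.18) and Col3a1 (-0.17) the largest; the list mean was 8.998 to 9.06 in hCT1 samples and 9.04 to 9.09 in control samples. Their part in the Cdh13 difference was not tested.

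For Cdh15, 5 skeletal myogenic markers were measured and all were dim, with list means of 4.02 to 4.12 in hCT1 samples and 3.91 to 4.01 in control samples. Myf6, a muscle regulatory factor, was the 1 that passed, higher by 0.36 (SE 0.06, adjusted p = 0.00287 from limma) at percentile 24.6 of control signal. The 4 without a call included Myod1 (0.12) and Myog (0.13). The part of skeletal myogenic cells in the Cdh15 values was not tested. Of 7 macrophage markers 1 was lower, Lyz2 (-0.52, adjusted p = 0.00504 from limma, but 0.0775 and lost by the one-way test), with list means of 5.42 to 5.60 in hCT1 samples and 5.65 to 5.70 in control samples.

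The genes whose 6 sample values were most like those of Cdh17 were Vwa5a, Scn3b, Thbd, Prss46 and Il6st, with a Pearson's r of 0.9989, 0.9988, 0.9987, 0.9984 and 0.9983. Over 6 samples in 2 groups such an r is set mostly by the group difference, and 68 of 14500 other genes had an r above 0.99. Il6st, which encodes the shared receptor chain gp130 through which cardiotrophin 1 signals, was 10.78 ± 0.01 in hCT1-treated cells and 10.58 ± 0.01 in control cells (SD, n = 3 each), a log2 difference of 0.20 (SE 0.05). Thbd, which encodes the endothelial anticoagulant receptor thrombomodulin, was 6.21 ± 0.03 in hCT1-treated cells and 4.997 ± 0.06 in control cells, and Scn3b, a sodium channel beta subunit, was 9.42 ± 0.06 in hCT1-treated cells and 8.04 ± 0.10 in control cells. Vwa5a was 9.63 ± 0.04 in hCT1-treated cells and 8.61 ± 0.06 in control cells, and the serine protease gene Prss46 was 6.48 ± 0.02 in hCT1-treated cells and 5.95 ± 0.03 in control cells.

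**Figure D4:**
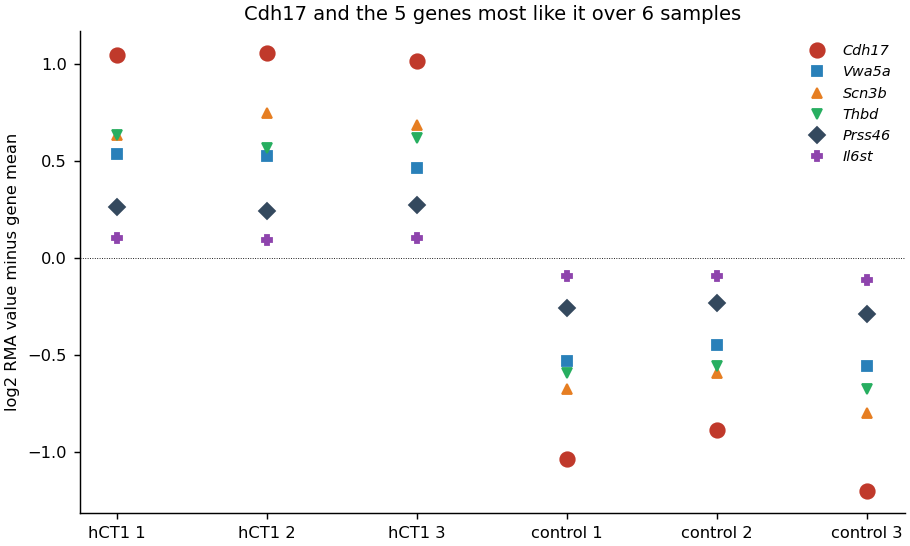
The log2 RMA value of Cdh17 (red circles) and of the 5 genes most like it, each less its own mean over the 6 samples, is plotted for the 3 hCT1 and the 3 control samples. The points of Cdh17 lie furthest from 0 in all 6 samples, those of Il6st nearest to it, with group differences of 2.09 and 0.20.

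A log2 difference could move in 9 of the 16 other settings, 6 of which left out 1 sample each; the rest change only the test, its threshold or the probe sets entered. Over these 9 the log2 difference of Cdh17 was 2.00 to 2.16 and that of Cdh13 was 0.33 to 0.37. Cdh1 ranged from 0.08 to 0.20, Cdh6 from -0.15 to -0.09 and Cdh15 from -0.17 to -0.12. Cdh5 ranged from -0.05 to 0.04.

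**Figure D5:**
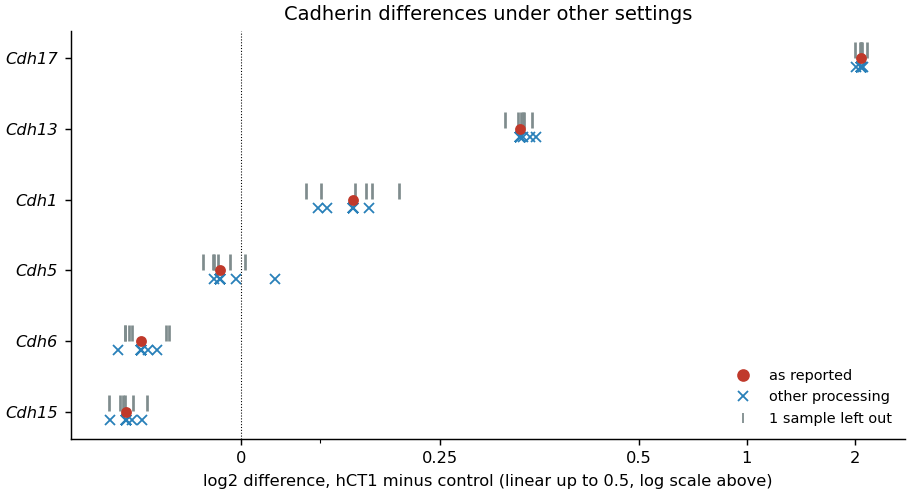
The log2 difference (hCT1 minus control) of each cadherin is plotted as reported (red circles), under other processing settings (blue crosses) and with 1 sample left out (grey ticks), on an axis that is linear up to 0.5 and logarithmic above. The marks of Cdh17 lie between 2.00 and 2.16, and those of Cdh5 are on both sides of 0.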

How the data were processed

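RNA of each of the 6 samples went onto its own Affymetrix whole-transcript array. The authors deposited log2 values, made by RMA with Affymetrix Expression Console (versions not given in the sources used here); RMA corrects background, sets the arrays to one distribution of values and summarises the probes of a set. They were used unchanged. The series table held 29215 probe sets, of which 15310 were paired with 1 symbol, 323 with several (named nowhere) and 13582 were unnamed here. Symbols were checked against RefSeq (assembly GRCr8) by gene identifier for 15279 of the 15310. The build of the probe sets is not given in the sources used here. The table has no detection calls, and the number of arrays limits the precision.

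The comparison of hCT1 with control samples used lmFit and eBayes of limma 3.58.1 under R 4.3.3 (2-sided, Benjamini-Hochberg adjustment over the 15310 probe sets, threshold 0.05). A gene of a list was represented by the brightest of its probe sets. Percentiles are ranks of a group mean among all 29215 probe sets. The members and lists (7 of related genes, 9 of cell type markers) were chosen with earlier results of these data known. Genes named are all members, those of a list that passed (the 4 largest where more did; the 2 largest differences where none did) and the 5 most like Cdh17; Cdh2, the core catenins, Tcf21, Actc1, Col1a1, Pecam1, Adipoq, Cdx2, Epcam, the other probe sets of Krt18 and Vil1, Myod1 and Myog were added after their values were seen. The fit was checked on simulated data of 15310 probe sets for this comparison, where log2 changes of 1, 0.5 and 0.25 were called in 65 of 67, 50 of 67 and 14 of 66 cases.

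Alternatives were the replicate block, eBayes with trend and robust, array weights, a filter at percentile 40 of mean signal, all probe sets, another quantile normalization, centring on each array's median, the one-way test of the methods, an adjusted p under 0.01, the mean of a gene's probe sets, and leaving out each sample. In the one-way test the 2 groups were compared on each probe set's own spread, with the Benjamini-Hochberg adjustment added here.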

Additional observations from a re-analysis of the deposited data

How the results depend on the processing

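The limma calls of the cadherins outside the disc (2 higher, 0 lower) were the same in the 16 other settings, the replicate block included, which is no independent sign of stability, since the genes were chosen with this comparison known. In the 9 settings that could move a difference, 53 of 54 differences of single cadherins moved by less than the within-group SD of their probe set. For the settings that left out 1 sample this was fixed in advance. Dropping 1 of 3 samples cannot move a difference by as much as that SD. The count is therefore no sign of stability. The difference of Cdh5 moved to 0.04 after another quantile normalization. The deviations from the group mean of samples with the same replicate number correlated at -0.03, 0.05 and -0.28. Those of samples with different numbers correlated at -0.18 to 0.21. With 3 samples per group these values cannot decide whether samples of the same number shared a culture or a day. With the replicate block 490 probe sets were higher (762 as reported). In that setting 0 other Cdh-named cadherins were called in either direction (1 and 1 as reported) and 1 protocadherin was lower (2 as reported). Over every probe set the counts were 435 higher and 899 lower, by the one-way test of the methods 376 and 675, and at an adjusted p under 0.01 296 and 563, against 762 and 1506; with 1 sample left out they were 417 (without control replicate 2) to 873 (without control replicate 3) and 803 (without control replicate 1) to 1810 (without control replicate 3). The other Cdh-named cadherins were 0 higher with trend and robust, the filter, every probe set, another quantile normalization, the one-way test, the stricter threshold and each sample left out (0 to 0), and 0 lower with trend and robust, every probe set, the one-way test and the stricter threshold (0 to 1 with 1 sample left out). Catenins and partners were 1 higher in place of 0 with trend and robust, the filter and the one-way test, and 2 lower in place of 1 with trend and robust, array weights, the filter and median centring. Protocadherins and large cadherins were 1 higher in place of 0 with array weights and median centring. In place of 2 lower there were 3 with array weights and the filter, and 1 over every probe set and with median centring. There were 0 lower at the stricter threshold and 1 to 2 with 1 sample left out. Over the other lists 17 calls became 11 by the one-way test and 22 with trend and robust. Over all probe sets the counts were largest with array weights, at 1097 higher and 2012 lower. The causes were not tested. With 3 arrays per group and no detection calls, differences near the spread between samples, such as that of Cdh5, which changed sign, cannot be told from 0.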
